A study of Homo sapiens with 6 samples.

Results

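The genes described here are the protein-coding human myosin genes, 51 of the 60612 gene rows measured. They were taken by symbol, as every row named MYH, MYO or MYL followed by a digit and annotated as protein coding; 69 rows matched the symbol and 18 of them were left out as not protein coding. The 51 comprise 14 conventional heavy chains (MYH), 25 unconventional heavy chains (MYO) and 12 light chains (MYL). RNA sequencing of poly(A) RNA compared 3 libraries of SNU-368 cells labelled shTFAM with 3 libraries of SNU-368 cells labelled shCtrl. SNU-368 is a human line that the labels place among hepatocellular carcinoma lines, and TFAM is the protein that packages mitochondrial DNA and starts its transcription. Both groups carry a short hairpin construct, against TFAM or as control, and the labels name no vector, clone, time or other agent.

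Myosins are motors that use ATP to pull on actin filaments. A conventional myosin II is built from a pair of heavy chains with a long coiled tail, each carrying an essential and a regulatory light chain, and it assembles into bipolar filaments that contract muscle or, in other cells, tension the cortex and split the dividing cell. Unconventional myosins do not form such filaments: class I joins actin to membranes, class V and class VI carry cargo in opposite directions along the filament, and others shape microvilli, stereocilia or filopodia. In liver cancer cells nonmuscle myosin II is known for its part in adhesion and migration.

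TFAM itself stood at 10.1, 10.1 and 8.47 FPKM (fragments scaled to gene length and to library depth) in shTFAM libraries, against 13.5, 12.3 and 14.8 FPKM in shCtrl libraries. The groups did not overlap, and TFAM fell by 0.42 on the log2 scale (SE 0.107, edgeR adjusted p = 0.0377). With any 1 library left out this call was lost, with adjusted p between 0.0676 and 0.0948. Libraries held 46263488 to 61058282 counts in shTFAM cells and 43286024 to 50910536 in shCtrl cells. At this depth 3 counts, the limit that a count of 0 allows, correspond to 0.0519 to 0.0677 CPM, for counting error only. CPM here are counts scaled to each library's counts in tested genes and adjusted by the TMM factors of the edgeR fit. Mitochondrially encoded genes took 7.91% to 10.7% of the counts in shTFAM libraries and 10.1% to 14.2% in shCtrl libraries. Of 10 liver markers, ALB, AFP, APOA1, APOB and TTR had 0 counts in every library, while the epithelial keratins KRT8 and KRT18 averaged 115 and 157 FPKM in shTFAM cells and 79.5 and 174 FPKM in shCtrl cells. Nothing in the labels says that the 3 libraries of a group were grown separately, and the p-values then reflect only how far these libraries vary, which may be technical. Fewer cells of a kind and less RNA per cell cannot be told apart in such bulk samples.

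Promoters are shown for the class I genes that rose, which share a family and a direction, and for MYH9, the most abundant heavy chain gene and the only MYH gene that rose. The sequences are RefSeq's for GRCh38.p14, from 250 bases before to 50 bases after the start, 5′ to 3′ on the gene's own strand. Capitals mark a CArG box, the motif of serum response factor, which drives many contractile genes. The windows are chr17:32877075-32877374 for MYO1D, chr15:59372822-59373121 for MYO1E, chr7:44978966-44979265 for MYO1G and chr22:36387918-36388217 for MYH9, all on the minus strand.
MYO1D: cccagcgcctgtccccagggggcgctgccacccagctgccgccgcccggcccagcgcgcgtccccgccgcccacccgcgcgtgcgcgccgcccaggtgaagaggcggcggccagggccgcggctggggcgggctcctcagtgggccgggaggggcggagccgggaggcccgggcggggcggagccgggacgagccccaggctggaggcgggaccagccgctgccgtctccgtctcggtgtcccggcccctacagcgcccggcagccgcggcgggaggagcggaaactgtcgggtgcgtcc
MYO1E: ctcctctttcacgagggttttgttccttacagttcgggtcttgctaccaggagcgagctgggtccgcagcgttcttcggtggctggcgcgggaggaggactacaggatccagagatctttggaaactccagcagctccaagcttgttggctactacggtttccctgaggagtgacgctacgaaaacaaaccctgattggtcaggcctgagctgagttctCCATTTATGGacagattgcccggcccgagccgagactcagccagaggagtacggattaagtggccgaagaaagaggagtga
MYO1G: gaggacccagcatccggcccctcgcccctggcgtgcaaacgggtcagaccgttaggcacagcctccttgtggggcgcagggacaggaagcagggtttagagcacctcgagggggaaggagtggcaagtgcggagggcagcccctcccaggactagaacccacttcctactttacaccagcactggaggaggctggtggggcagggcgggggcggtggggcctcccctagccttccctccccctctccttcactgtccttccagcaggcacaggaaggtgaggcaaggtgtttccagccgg
MYH9: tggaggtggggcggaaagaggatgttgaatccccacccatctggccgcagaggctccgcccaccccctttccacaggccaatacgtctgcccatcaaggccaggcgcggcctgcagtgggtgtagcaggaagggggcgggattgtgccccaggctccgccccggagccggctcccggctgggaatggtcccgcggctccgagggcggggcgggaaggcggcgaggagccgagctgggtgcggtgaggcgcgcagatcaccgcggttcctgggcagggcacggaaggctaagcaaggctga
Only MYO1E among these 4 held a CArG box, with its first base 31 bases before the start. Across the family, 40 of 51 genes were matched to 53 promoters, and 3 of the 53 (5.66%) held the motif on either strand, against 454 of all 35116 promoters (1.29%). The other pair were those of MYL7, an atrial light chain gene, and MYO1A, an intestinal class I gene, both at or near 0 in these cells. The core of the hypoxia response element, ACGTG or GCGTG on either strand, was in 26 of the 53 promoters (49.1%), against 48.4% of all promoters. These matches describe letters in the windows and were not tested as binding sites.

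Summed over the family, the relative level of myosin mRNA was higher in shTFAM libraries. The summed level of the 51 genes was 498, 492 and 500 FPKM in shTFAM libraries and 387, 382 and 415 FPKM in shCtrl libraries, and the groups did not overlap. Light chains made up the largest part, at 218, 221 and 205 FPKM in shTFAM libraries and 169, 168 and 189 FPKM in shCtrl libraries. Unconventional heavy chains summed to 160 ± 5.33 FPKM in shTFAM cells and 129 ± 6.87 FPKM in shCtrl cells, and conventional heavy chains to 122 ± 8.78 and 89.8 ± 1.10 FPKM (SD, n = 3 each). MYL12B, MYH9, MYO1C and MYL6 together held 60.3% to 62.8% of the summed FPKM in shTFAM libraries and 59.2% to 60.8% in shCtrl libraries.

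Of the 51 genes, 24 had a mean of at least 0.5 FPKM over the 6 libraries and were tested. At an adjusted p under 0.05, 8 rose, 1 fell and 15 did not pass, which is 37.5% of the 24 called, beside 17.9% of all 14708 tested genes (11.3% higher and 6.59% lower). The median log2 fold change of the 24 was 0.28, with 18 above 0, and that of all tested genes was -0.015. Among the unconventional heavy chains 5 of 16 rose and 1 fell, among the light chains 2 of 6 rose, and of the conventional heavy chains tested MYH9 rose and MYH10 did not pass. The class medians were 0.28, 0.30 and 0.41 in that order, so the 3 classes had medians close to each other and were not tested against each other. The 3 genes just inside the level limit were MYO7A, MYO7B and MYO15B, at means of 0.566, 0.651 and 0.674 FPKM. Each reached 0.5 FPKM in 1 group only, and so had to differ. They gave 2 of the 8 rises and the 1 fall. Groups did not overlap in CPM for 15 of the 24, with 13 higher and 2 lower in shTFAM libraries, beside 22.1% higher and 20.1% lower of all tested genes (42.2% in all). Of the other 21, which reached 0.5 FPKM in both groups, 6 rose and 0 fell. Scaling to counts outside mitochondrial DNA put the median of all genes at -0.15 and left 6 myosin genes higher and 2 lower. The share of all genes called under that scaling is not given.

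**Figure D1:**
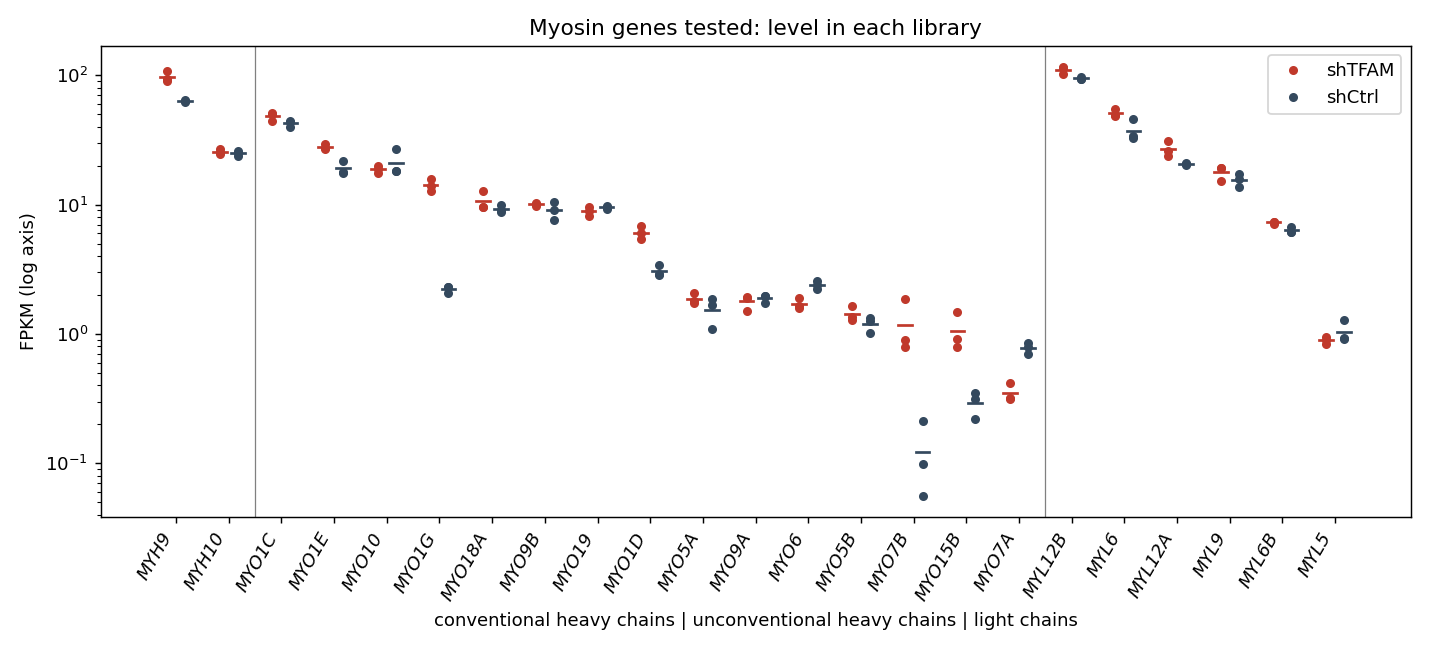
Level of 23 tested myosin genes in each library, in FPKM on a log axis, with shTFAM libraries in red to the left of shCtrl libraries in dark blue and a bar at each group mean. MYL12B and MYH9 stand highest, and the gap between groups is widest for MYO7B and MYO1G.

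Nonmuscle myosin II heavy chains differed from each other. MYH9 (ENSG00000100345, chr22:36281280-36387967, minus strand) encodes the heavy chain of myosin IIA, the main contractile motor of most nonmuscle cells. It stood at 92.8, 89.6 and 107 FPKM in shTFAM libraries and 64.3, 62.1 and 63.3 FPKM in shCtrl libraries. Every shTFAM library lay above every shCtrl library, and MYH9 rose 1.62-fold, a log2 change of 0.69 (SE 0.111, edgeR adjusted p = 0.00904). MYH9 passed under every alternative run, with adjusted p of 0.0148 to 0.0408 when 1 library was left out.

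MYH10 (chr17:8474207-8630761, minus strand) encodes the heavy chain of myosin IIB, a slower motor that holds tension longer. Its levels were 24.4, 26.7 and 25.6 FPKM in shTFAM libraries and 24.9, 25.9 and 23.9 FPKM in shCtrl libraries. The groups overlapped, and the log2 change of 0.12 (SE 0.0898) did not pass (edgeR adjusted p = 0.38); its sign turned to -0.012 when libraries were scaled to counts outside mitochondrial DNA. A processed pseudogene on the other strand within MYH10 fell by 1.14 (edgeR adjusted p = 0.023), and reads of that stretch cannot be assigned to a strand from the sources used here. MYH14, the heavy chain of myosin IIC, was barely detected, with 8, 4 and 7 counts in shTFAM libraries and 22, 25 and 14 counts in shCtrl libraries, and was not tested. MYH9 therefore made up 79.2%, 77.0% and 80.7% of the summed FPKM of MYH9, MYH10 and MYH14 in shTFAM libraries, against 72.0%, 70.5% and 72.6% in shCtrl libraries. The groups did not overlap and differed by 7.23 percentage points; the two-sided exact permutation p was 0.1, the smallest that 3 against 3 libraries allow.

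**Figure D2:**
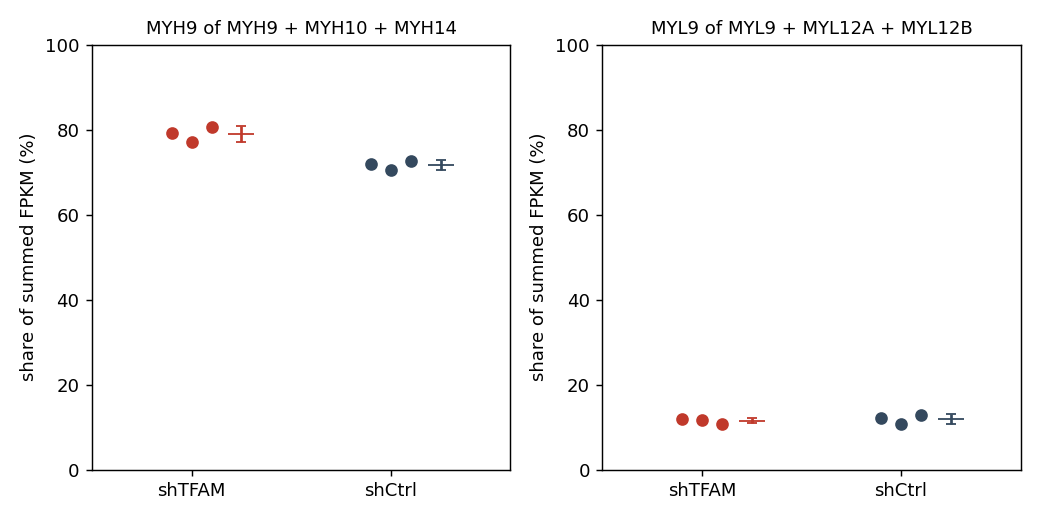
Share of MYH9 in the summed FPKM of the nonmuscle myosin II heavy chains (left) and of MYL9 in that of the regulatory light chains (right), in percent; points are libraries, shTFAM left of shCtrl, and bars are the mean and SD of 3 libraries. The MYH9 share is 78.9% ± 1.83 in shTFAM cells and 71.7% ± 1.07 in shCtrl cells, and the MYL9 share overlaps between groups.

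Regulatory light chains carry the phosphorylation that switches myosin II on, and 2 of the 3 that pair with nonmuscle myosin II rose by small amounts. MYL12B (chr18:3261479-3278461, plus strand), the most abundant myosin gene here, stood at 115, 114 and 102 FPKM in shTFAM libraries and 92.9, 93.0 and 97.0 FPKM in shCtrl libraries. MYL12A (chr18:3247481-3256236, plus strand), its neighbour and near copy, stood at 25.8, 30.9 and 23.9 FPKM in shTFAM libraries and 20.6, 20.3 and 21.0 FPKM in shCtrl libraries. Neither gene overlapped between groups: MYL12B rose 1.24-fold (log2 0.31, SE 0.0803, edgeR adjusted p = 0.0395) and MYL12A rose 1.37-fold (log2 0.46, SE 0.111, edgeR adjusted p = 0.0322).

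Neither of these calls was firm. Without any 1 library the MYL12B call was lost (adjusted p 0.0524 to 0.14), and the MYL12A call was kept only without shTFAM 3 (0.0467) and lost without each of the other 5 libraries (up to 0.0986); scaling to library totals gave 0.101 for MYL12B and 0.0579 for MYL12A. The transcripts of MYL12A share 76 of their 1180 windows of 50 bases with MYL12B (6.44%), so reads of these 2 genes may be split between them. MYL9 (chr20:36541497-36551447, plus strand), the regulatory light chain also found in smooth muscle, stood at 19.2, 19.1 and 15.3 FPKM in shTFAM libraries and 15.8, 13.6 and 17.3 FPKM in shCtrl libraries. Its groups overlapped and its log2 change of 0.28 (SE 0.126) did not pass (edgeR adjusted p = 0.16). The share of MYL9 in the 3 regulatory light chains was 11.5% ± 0.591 in shTFAM cells and 11.9% ± 1.07 in shCtrl cells (SD, n = 3 each), with a p of 0.6 by the same exact test.

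Essential light chains brace the lever arm of the motor. MYL6 (chr12:56158346-56162970, plus strand), the essential light chain of nonmuscle and smooth muscle myosin II, stood at 49.1, 48.5 and 55.2 FPKM in shTFAM libraries and 32.7, 33.8 and 45.6 FPKM in shCtrl libraries. All shTFAM libraries lay above all shCtrl libraries, with shCtrl 3 nearest to them. Its log2 change of 0.53 (SE 0.15) narrowly missed the threshold (edgeR adjusted p = 0.0505); it passed without shCtrl 3 (0.016) and by DESeq2 (0.0165). MYL6 shares 1302 bases of the same strand with its neighbour MYL6B, whose log2 change of 0.28 (SE 0.102) also did not pass (edgeR adjusted p = 0.097). MYL5, a regulatory light chain gene at 0.834 to 0.939 FPKM in shTFAM libraries and 0.913 to 1.27 FPKM in shCtrl libraries, had a log2 change of -0.14 (edgeR adjusted p = 0.672). The other light chain genes were at or near 0: MYL1, MYL2, MYL4 and MYL10 had 0 counts in all libraries, MYL3 had 4 counts in 1 shTFAM library, and MYL7 had 4, 0 and 3 counts in shTFAM libraries and 14, 5 and 7 in shCtrl libraries.

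**Figure D3:**
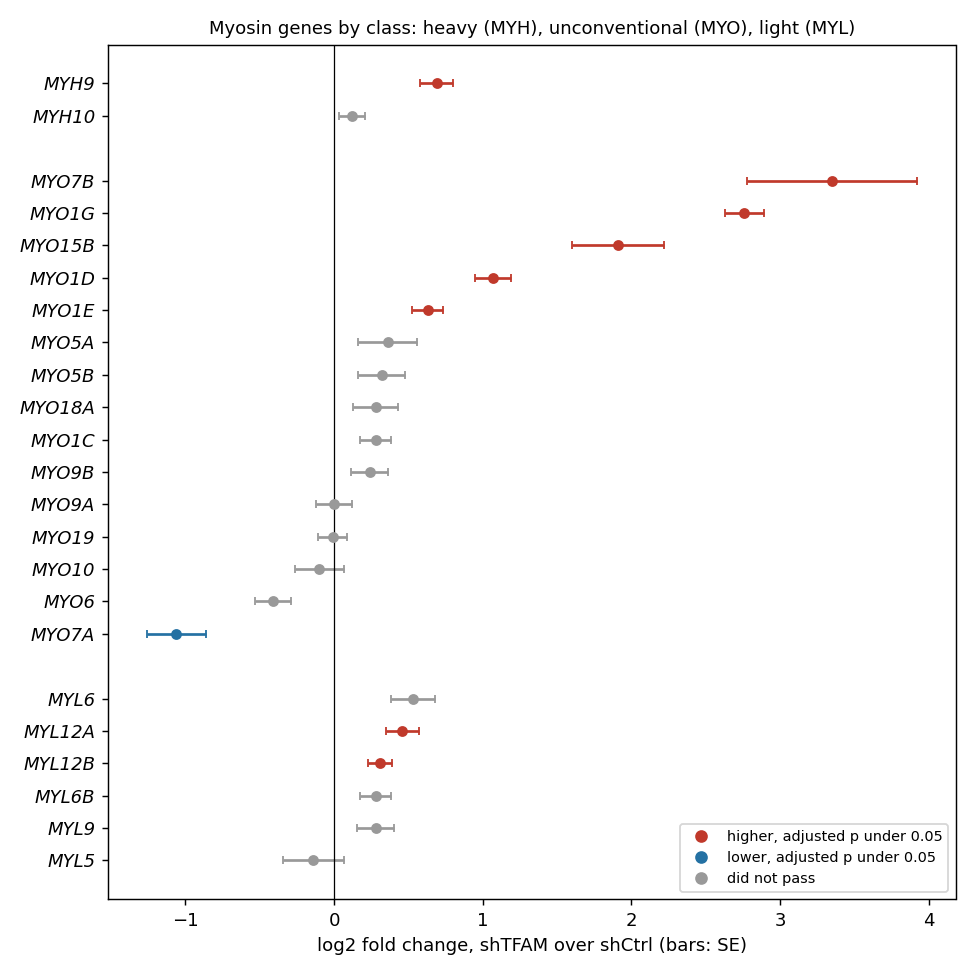
Log2 fold change, shTFAM over shCtrl, of 23 tested myosin genes, with bars of 1 SE, grouped from top to bottom as conventional heavy chains, unconventional heavy chains and light chains. Red genes rose, the blue gene fell and grey genes did not pass; MYO7B, MYO1G and MYO15B lie farthest to the right and MYO7A farthest to the left.

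Class I myosins are short, single-headed motors that bind membrane lipids and join them to actin. Of 8 class I genes 5 were tested, 3 rose (60.0%, beside 11.3% of all tested genes) and 0 fell. All 5 log2 changes were above 0, with a median of 0.63, beside -0.015 over all tested genes. MYO1G (ENSG00000136286, chr7:44962662-44979088, minus strand), best known from the plasma membrane of blood cells, stood at 13.9, 12.8 and 15.9 FPKM in shTFAM libraries and 2.06, 2.29 and 2.31 FPKM in shCtrl libraries. The groups lay far apart, and MYO1G rose 6.78-fold, a log2 change of 2.76 (SE 0.133, edgeR adjusted p = 0.000335). Leaving out 1 library gave adjusted p between 0.00111 and 0.00345.

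Because MYO1G is a blood cell gene, leukocyte markers are given beside it. Of the 5 listed, PTPRC, CD3E and LYZ, which define leukocytes, T cells and myeloid cells, had 0 counts in every library. The other 2 were tested and rose, beside 11.3% of all tested genes. Among them CD68, a lysosomal protein of macrophages and other cells, averaged 13.9 FPKM in shTFAM cells and 5.49 FPKM in shCtrl cells (log2 1.43, edgeR adjusted p = 0.00892). The summed level of the 5 ranged from 13 to 18.2 FPKM in shTFAM libraries and from 4.51 to 6.78 FPKM in shCtrl libraries; its part in the MYO1G result was not tested.

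MYO1D (chr17:32492522-32877177, minus strand), whose fly counterpart sets left-right asymmetry in Drosophila, stood at 6.8, 6.0 and 5.43 FPKM in shTFAM libraries and 2.89, 2.84 and 3.43 FPKM in shCtrl libraries. It did not overlap between groups and rose 2.1-fold (log2 1.07, SE 0.119, edgeR adjusted p = 0.00337). MYO1E (chr15:59132434-59372871, minus strand), a motor of clathrin-mediated uptake and of the kidney filter, stood at 29.2, 27.0 and 27.4 FPKM in shTFAM libraries and 17.6, 18.0 and 21.6 FPKM in shCtrl libraries. MYO1E also lay wholly above its controls and rose 1.54-fold (log2 0.63, SE 0.104, edgeR adjusted p = 0.0101); both calls held with any 1 library left out, at adjusted p up to 0.0197 for MYO1D and 0.0469 for MYO1E. MYO1E is the member of this group with the CArG box shown above. It overlaps FAM81A, on the other strand, by 179 bases, and FAM81A changed by -0.62 (edgeR adjusted p = 0.0649), opposite in sign to MYO1E.

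MYO1C (chr17:1464186-1492040, minus strand), which tethers glucose transporter vesicles and also has a nuclear form, is the most abundant unconventional myosin here. It stood at 50.9, 44.3 and 50.1 FPKM in shTFAM libraries and 44.3, 43.2 and 39.5 FPKM in shCtrl libraries. The log2 change of 0.28 (SE 0.102) did not pass (edgeR adjusted p = 0.103). In shCtrl cells MYO1C, MYO1E, MYO1D and MYO1G averaged 42.3, 19.1, 3.05 and 2.22 FPKM, in falling order, and in shTFAM cells MYO1G, at 14.2 FPKM, stood above MYO1D, at 6.08 FPKM. MYO1F, the other blood cell class I gene, had 55, 109 and 97 counts in shTFAM libraries and 68, 45 and 37 in shCtrl libraries, MYO1H at most 11 counts in any library and MYO1A 0 counts in all; these 3 were not tested.

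Both class VII genes reached 0.5 FPKM in 1 group only, so some difference between groups came with the level limit. MYO7B was higher and MYO7A lower in shTFAM libraries. MYO7B (chr2:127535802-127637728, plus strand), the motor that sits at the tips of intestinal and kidney microvilli, stood at 0.904, 0.789 and 1.85 FPKM in shTFAM libraries and 0.0988, 0.0563 and 0.213 FPKM in shCtrl libraries. These are 441, 380 and 1189 counts in shTFAM libraries and 45, 30 and 108 counts in shCtrl libraries, with shTFAM 3 and shCtrl 3 highest in their groups. MYO7B rose 10.2-fold (log2 3.35, SE 0.571, edgeR adjusted p = 0.0111), with a log2 change of 4.0 without shCtrl 3 and 2.83 without shTFAM 3. MYO7A (chr11:77128246-77215241, plus strand), the hair cell and retina motor mutated in Usher syndrome, stood at 0.313, 0.317 and 0.42 FPKM in shTFAM libraries and 0.846, 0.795 and 0.702 FPKM in shCtrl libraries. Every shTFAM library lay below every shCtrl library, and MYO7A fell by 1.06 on the log2 scale (SE 0.201, edgeR adjusted p = 0.0153). That call was lost without shCtrl 1 (0.0521), shCtrl 2 (0.0561) or shTFAM 2 (0.0537), and by limma on log2(FPKM + 0.1) (0.0508).

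The class XV gene that was tested also reached 0.5 FPKM in 1 group only, and like MYO7B it was higher in shTFAM libraries. MYO15B (chr17:75588058-75626501, plus strand) stood at 0.907, 0.787 and 1.47 FPKM in shTFAM libraries and 0.312, 0.349 and 0.218 FPKM in shCtrl libraries, and it rose 3.77-fold (log2 1.91, SE 0.308, edgeR adjusted p = 0.00924). Every shTFAM library was above every shCtrl library, and the calls of MYO15B and MYO7B held without any 1 library. Those fits kept the genes chosen by level over all 6 libraries, so they do not undo the effect of the level limit. MYO15A, the stereocilia tip motor, was below the level limit, at 137, 163 and 289 counts in shTFAM libraries and 131, 131 and 60 in shCtrl libraries, and did not pass when all genes with counts were fitted (log2 0.79, edgeR adjusted p = 0.278).

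The remaining unconventional myosins did not pass. MYO6 (chr6:75749192-75919537, plus strand), the motor that walks toward the slow-growing end of actin and works in uptake and autophagy, stood at 1.63, 1.89 and 1.58 FPKM in shTFAM libraries and 2.21, 2.56 and 2.41 FPKM in shCtrl libraries. Its groups did not overlap, and its log2 change was -0.41 (SE 0.123, edgeR adjusted p = 0.0582); with libraries scaled to their totals the adjusted p was 0.037, and by DESeq2 0.021. MYO10 (chr5:16661907-16936288, minus strand), which gathers at filopodium tips, stood at 18.9, 19.7 and 17.5 FPKM in shTFAM libraries and 18.1, 18.1 and 27.1 FPKM in shCtrl libraries. MYO10 changed by -0.10 (SE 0.165, edgeR adjusted p = 0.719) and by 0.11 without shCtrl 3, the 1 library that stood apart.

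MYO19, the motor anchored on mitochondria, stood at 8.23, 9.62 and 8.9 FPKM in shTFAM libraries and 9.74, 9.19 and 9.59 FPKM in shCtrl libraries. Its groups overlapped, with a log2 change of -0.0088 (SE 0.0961, edgeR adjusted p = 0.961). MYO19 overlaps ZNHIT3 and PIGW on the other strand, and PIGW changed by -0.96 (edgeR adjusted p = 0.0685). RHOT1, RHOT2 and MTX3, outer membrane proteins that hold MYO19 on mitochondria, changed by 0.18, 0.11 and -0.14 on the log2 scale, none past the threshold (edgeR adjusted p = 0.393, 0.481 and 0.457). The vesicle carriers MYO5A and MYO5B changed by 0.36 and 0.32, the Golgi myosin MYO18A, which shares 5337 bases of its strand with TIAF1, by 0.28, and the class IX genes MYO9B and MYO9A by 0.24 and -0.0033 (edgeR adjusted p 0.201 to 0.988 over these 5). The others were too low to test: MYO16 had at most 26 counts in any library, MYO5C 12 counts in each of 2 shTFAM libraries, MYO18B 4 counts in each shCtrl library, and MYO3A and MYO3B 0 counts in all.

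Among the skeletal muscle heavy chains, MYH8 and MYH3 were lower in shTFAM libraries, at levels far below MYH9. The genes MYH13, MYH8, MYH4, MYH1, MYH2 and MYH3 lie side by side on chr17:10300865-10651968, and none reached a mean of 0.5 FPKM; MYH8, at a mean of 0.467 FPKM, and MYH3, at 0.36 FPKM, were just outside. Together they had 153, 179 and 118 counts in shTFAM libraries and 484, 654 and 501 counts in shCtrl libraries, or 3.12 ± 0.99 and 11.3 ± 1.33 CPM (SD, n = 3 each). The groups did not overlap; this grouping was made after the values were seen and has no test.

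MYH8, the heavy chain of muscle around birth, had 33, 71 and 23 counts in shTFAM libraries and 263, 343 and 220 counts in shCtrl libraries. MYH3, the embryonic heavy chain, had 87, 86 and 83 counts in shTFAM libraries and 140, 221 and 219 counts in shCtrl libraries. Both genes were lower in every shTFAM library, and when all genes with counts were fitted, both fell, by 2.67 for MYH8 (edgeR adjusted p = 0.0175) and 1.19 for MYH3 (edgeR adjusted p = 0.0363) on the log2 scale, beside 6.9% of all genes in that fit called and 2.29% called lower. The adult fast chains MYH4, MYH1 and MYH2 had 21, 7 and 7, then 0, 8 and 5, then 4, 7 and 0 counts in shTFAM libraries, against 38, 42 and 19, then 35, 27 and 18, then 8, 21 and 25 counts in shCtrl libraries. None of the 3 passed (edgeR adjusted p = 0.255, 0.184 and 0.332), and MYH13, of eye muscles, had 8 counts in 1 shTFAM library.

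MYH1 and MYH2 share 841 of the 5975 windows of 50 bases of MYH1 (14.1%), so their counts are uncertain. MYHAS, the antisense gene of this region, had 3 counts summed over shTFAM libraries and 45 over shCtrl libraries; the sources used here do not say whether counting used strand, so reads of the 2 strands cannot be told apart. Of 16 markers of skeletal and cardiac muscle, MYOD1, MYOG, TNNT3 and TNNI1 had 0 counts throughout. Of the 4 tested 1 rose and 0 fell, beside 11.3% higher and 6.59% lower of all tested genes. The riser was ACTC1, cardiac actin, which averaged 5.72 FPKM in shTFAM cells and 1.27 FPKM in shCtrl cells (log2 2.23, edgeR adjusted p = 0.01). The list summed to 26.0 to 29.5 FPKM in shTFAM libraries and 15.7 to 21.6 FPKM in shCtrl libraries, mostly ACTC1, TNNT1 and DES. Among the members too low to test, TTN, titin, averaged 0.0814 FPKM in shTFAM cells and 0.137 FPKM in shCtrl cells, TNNC2, fast troponin C, 0.362 and 0.535 FPKM, and ACTA1 and CKM were listed at 0 counts in shTFAM libraries, with 18 and 10 counts over the shCtrl libraries. The other muscle chains were low: MYH7 had 0 counts, MYH6 4 and MYH15 15 counts in shCtrl 3 alone, and MYH7B had 19, 19 and 14 counts in shTFAM libraries and 16, 29 and 9 in shCtrl libraries. The smooth muscle chain MYH11 had 45, 25 and 38 counts in shTFAM libraries and 38, 33 and 44 in shCtrl libraries. Of 6 smooth muscle markers the master regulator MYOCD had 0 counts, and the list summed to 2.61 to 3.93 FPKM in shTFAM libraries and 1.80 to 2.22 FPKM in shCtrl libraries, and of the 2 tested SMTN, smoothelin, rose by 1.29 (edgeR adjusted p = 0.0111) while ACTA2, smooth muscle actin, averaged 0.401 FPKM in shTFAM cells and 0.684 FPKM in shCtrl cells and did not pass (log2 -0.68, edgeR adjusted p = 0.226). LMOD1, leiomodin, was too low to test, at 0.145 FPKM in shTFAM cells and 0.278 FPKM in shCtrl cells.

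**Figure D4:**
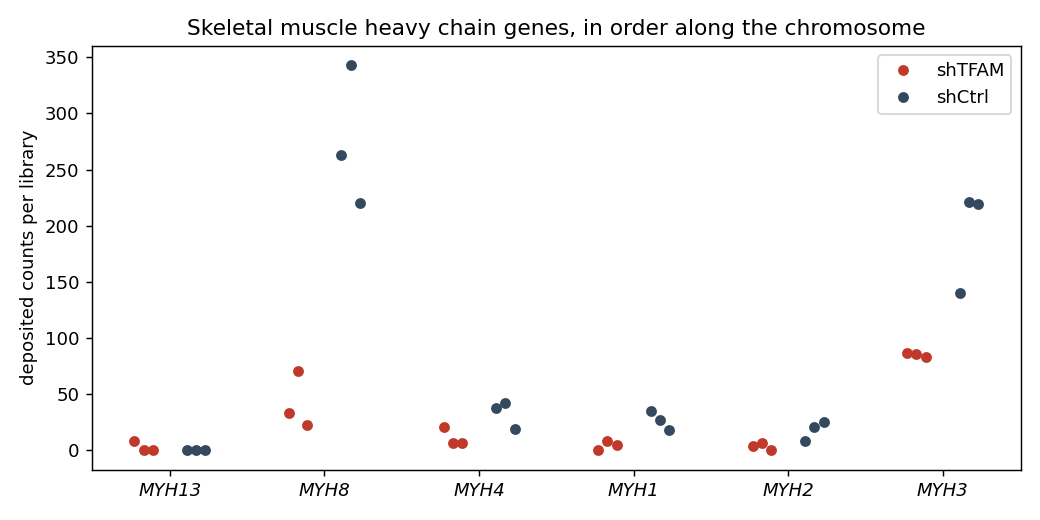
Deposited counts per library of the 6 skeletal muscle heavy chain genes, in their order along chromosome 17, with shTFAM libraries in red left of shCtrl libraries in dark blue. MYH8 and MYH3 carry most of the counts, and their shTFAM libraries lie below their shCtrl libraries.

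The genes that switch myosins on, hold their filaments or hand them cargo were taken as 6 lists of 80 genes in all, of which 5 are described. Of 66 tested, 19 rose, 0 fell and 47 did not pass (28.8% called), with a median log2 change of 0.29, beside 17.9% called, 11.3% higher and a median of -0.015 over all tested genes. Leaving out 1 library moved the 19 calls to between 8 (without shCtrl 2) and 20, with 11 without shCtrl 1, 10 without shTFAM 2 and 11 without shTFAM 3. The share of all tested genes called in those fits is not given, here or for the lists below.

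Among kinases and phosphatase subunits that act on the regulatory light chain, 7 of 16 rose (43.8%, beside 11.3% of all tested genes), 0 fell and the median was 0.47. The 7 became 4 without shCtrl 1, shTFAM 2 or shTFAM 3 and 3 without shCtrl 2. CDC42BPG, a kinase of the MRCK family, stood at 7.37, 7.88 and 7.81 FPKM in shTFAM libraries and 4.74, 4.44 and 4.02 FPKM in shCtrl libraries (log2 0.89, SE 0.107, edgeR adjusted p = 0.00387). DAPK3, a death-associated kinase that phosphorylates the light chain directly, averaged 17.6 ± 2.81 FPKM in shTFAM cells and 9.95 ± 0.821 FPKM in shCtrl cells (log2 0.91, edgeR adjusted p = 0.011), and its relative DAPK2 averaged 2.16 ± 0.846 and 0.641 ± 0.105 FPKM (log2 1.84, edgeR adjusted p = 0.00945; SD, n = 3 each). CIT, citron kinase of the division furrow, averaged 13.4 ± 1.1 FPKM in shTFAM cells and 9.92 ± 0.5 FPKM in shCtrl cells (log2 0.52, edgeR adjusted p = 0.0206); its call was lost without shCtrl 1 or shCtrl 2 (adjusted p up to 0.0681). The best known kinases did not pass: ROCK1 changed by -0.0015 and ROCK2 by 0.087, and MYLK, the classical light chain kinase, was below the level limit at 0.257 FPKM in shTFAM cells and 0.169 FPKM in shCtrl cells. MYLK3, of the same family as MYLK, was lower, at 5.25 FPKM in shTFAM cells and 8.78 FPKM in shCtrl cells. Its log2 change of -0.67 did not pass (edgeR adjusted p = 0.0678, and 0.0223 to 0.162 with 1 library left out). Of the 16 tested changes 13 were above 0. Phosphatase genes were among those that rose, PPP1CB, the catalytic subunit, by 0.42 (edgeR adjusted p = 0.0229) and PPP1R12B, a targeting subunit, by 0.54 (edgeR adjusted p = 0.0218), as did CDC42BPB, another MRCK kinase, by 0.53 (edgeR adjusted p = 0.0273). The list thus holds both kinases that add the phosphate and subunits of the phosphatase that removes it; each of these last 3 calls was kept in 2 of 6 fits without 1 library (adjusted p up to 0.0842).

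Of 12 tested proteins that share the actin filament with myosin II, 6 rose (50.0%, beside 11.3%) and 0 fell, with a median of 0.49; the 6 became 3 without shCtrl 2 and 4 to 6 without any other library. LIMCH1, which activates nonmuscle myosin II, stood at 33.8, 29.9 and 31.2 FPKM in shTFAM libraries and 21.6, 21.7 and 17.5 FPKM in shCtrl libraries (log2 0.72, edgeR adjusted p = 0.00891). TPM1, a tropomyosin, rose by 0.84 (edgeR adjusted p = 0.0122), CNN3, a calponin, by 0.72 (edgeR adjusted p = 0.0126), and CALD1, caldesmon, by 0.58 (edgeR adjusted p = 0.0114; 0.0507 without shCtrl 2). The other 2 were TAGLN2, transgelin-2, by 0.64 (edgeR adjusted p = 0.0251), and MPRIP, which brings the phosphatase to actin, by 0.43 (edgeR adjusted p = 0.0206); with 1 library left out these calls were kept in 1 and 3 of 6 fits.

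In the list of myosin folding, filament assembly and turnover 0 of 7 passed, and of the 4 calmodulin genes tested, whose products are the light chains of class I, V and others, 0 passed. S100A4, which takes MYH9 filaments apart, stood at 302, 317 and 298 FPKM in shTFAM libraries and 171, 198 and 310 FPKM in shCtrl libraries, where shCtrl 3 stood apart (log2 0.52, SE 0.209, edgeR adjusted p = 0.129; 0.0104 without shCtrl 3). CSNK2B, a subunit of casein kinase 2, changed by 0.49 (edgeR adjusted p = 0.231), and CALM2, a calmodulin, by 0.43 (edgeR adjusted p = 0.112). Of 16 cargo adaptors tested 3 rose and 0 fell. The 18.8% called is near the 17.9% of all tested genes called in either direction, of which 11.3% were higher. Without 1 library 0 to 2 were called, and with shTFAM 3 and shCtrl 3 both out 2 were higher and 2 lower. Of the 16 log2 changes 11 were above 0. The lowest was that of DAB2, at 6.36 FPKM in shTFAM cells and 11.2 FPKM in shCtrl cells. Its log2 change of -0.74 did not pass (edgeR adjusted p = 0.147). RAB27A, which links pigment and secretory granules to class V myosins, rose by 0.78 (edgeR adjusted p = 0.015, and up to 0.0537 without shCtrl 2 or shTFAM 2). MLPH and MYRIP, of the same list, had 0 counts in both groups. OPTN, the MYO6 adaptor optineurin, averaged 4.93 ± 0.372 FPKM in shTFAM cells and 2.31 ± 0.806 FPKM in shCtrl cells (SD, n = 3 each; log2 1.17, edgeR adjusted p = 0.0281), and TAX1BP1, another MYO6 adaptor of autophagy, rose by 0.32 (edgeR adjusted p = 0.0484). The OPTN call was kept without shCtrl 2 or shCtrl 3 and lost without each of the other 4 libraries (up to 0.0804), and that of TAX1BP1 was lost without any 1 library (up to 0.128) and with library totals.

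**Figure D5:**
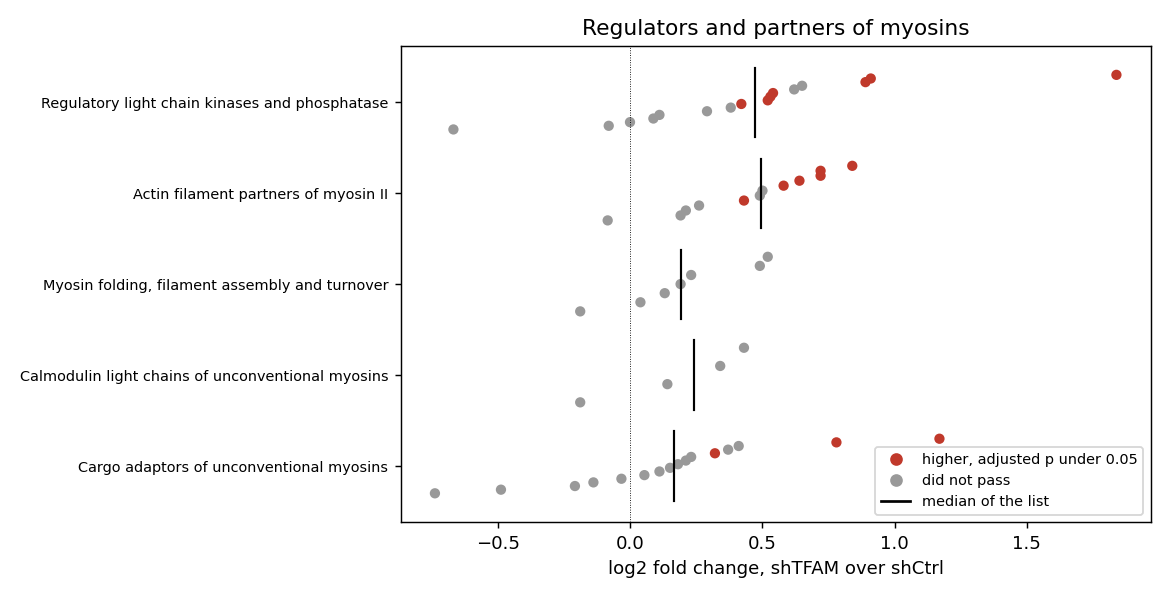
Log2 fold change, shTFAM over shCtrl, of 55 tested regulators and partners of myosins, a row of points for each of 5 lists; red points rose, grey points did not pass and the black line is the median of each list. Red points lie mainly in the lists of light chain kinases and phosphatase and of actin filament partners.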

How the data were processed

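RNA was poly(A)-selected and made into dUTP-marked paired-read libraries, per the labels' protocols. HISAT2 2.0.4, StringTie 1.3.4d, cutadapt 1.9 and Bowtie 0.12.2, with hg38 and mm8 as builds, stand in the submitters' processing notes, without roles; the sources used here name no counter, annotation or strand setting. Per the file headers, the authors deposited whole-number counts for each gene, and FPKM values, which divide by gene length and by depth; a row with 0 counts is listed at 0.0001 FPKM. Coordinates are the table's and are read as hg38. Genes with a mean of at least 0.5 FPKM over the 6 libraries (14708) were tested on the deposited counts with edgeR 4.0.16 in R 4.3.3: TMM factors, quasi-likelihood test, two-sided, Benjamini-Hochberg adjustment over all of them, threshold 0.05. Log2 fold changes and SE come from that fit; the common biological coefficient of variation was 0.251. Other settings used DESeq2 1.42.0, limma 3.58.1 on log2(FPKM + 1) and log2(FPKM + 0.1), other scalings, other level limits, a stricter threshold and left-out libraries. Shares were compared by exact permutation over libraries. The fit was tested on simulated data in 3 runs, with 200 of 14708 genes changed by 1 log2 unit. It recovered 52.8% of them and called 0.0391% of the unchanged genes. The simulated share of changed genes was far below the 17.9% of tested genes called in the data, so the recovered percentage may not carry over. A gene that did not pass may still have changed. Shared sequence was counted as identical windows of 50 bases in GENCODE 29 transcripts.

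Replicates were numbered within each group in accession order. A few genes and 1 pathway list are not reported here by name, though counts and sums include them. Of the others, every myosin gene is accounted for; values per library are given for those past the threshold and the 3 most abundant tested of each class, and, of each pathway list, for up to 4 called genes with the smallest p or, where none was called, the 2 most abundant, by level, fold change or both. The members, pathway lists and marker lists were chosen with earlier results of these data known.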

Additional observations from a re-analysis of the deposited data

How the results depend on the processing

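For 23 tested myosin genes, 341 comparisons with another setting gave 294 with the same direction and side of the threshold, 31 weaker, 7 stronger and 9 reversed; for 17 pathway genes 255 gave 199, 54, 2 and 0. The reversed ones lay near 0: MYH10 at -0.012 (counts outside mitochondrial DNA), MYO10 at 0.11 (without shCtrl 3; from -0.21 with 1 library left out) and 0.14 (shTFAM 3 and shCtrl 3 both out), MYO9A at 0.009, 0.039 and 0.083 (without shCtrl 1, shCtrl 2 or shTFAM 3; from -0.075) and 0.019 (both out), MYL5 at 0.013 (without shCtrl 3; from -0.24) and MYO19 at 0.049 (without shTFAM 1; from -0.06). The MYL9 share difference of -0.41 points ranged from -1.0 to 0.0372 with 1 library left out and was 0.364 with both out.

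Of 9 calls, 4 were left at an adjusted p of 0.01, with 3 of 6 unconventional heavy chains, 0 of 2 light chains and 4 of 19 pathway genes. The 2 light chain calls were 0 with no level limit, with library totals, with totals outside mitochondrial DNA and by limma with either pseudocount. The heavy chain count of 1 was 3 with no level limit, which adds MYH8 and MYH3. Leaving out 1 library gave 6 to 8 calls in all, 5 to 6 unconventional heavy chains, 0 to 1 light chains, 1 conventional heavy chain, 8 to 20 pathway genes and an MYH9 share difference of 6.37 to 8.19 points. On the log2(FPKM + 1) scale, which understates changes of low genes, MYO7B changed by 0.93, MYO15B by 0.65, MYO7A by -0.40 and DAPK2 by 0.91, and MYO7B by 2.49 with a pseudocount of 0.1. The causes of the other shifts were not tested. Apart from the fit with no level limit, the share of all tested genes called in these other fits is not given. Whether a loss of calls was particular to these genes was therefore not tested. No paired analysis was possible because the groups share no replicate numbers in the labels.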

Other observations

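Markers of other cell kinds were also measured. Of 6 fibroblast and stellate cell markers, COL1A2 had 0 counts in every library. Of the 4 tested 2 rose and 0 fell, beside 11.3% higher and 6.59% lower of all tested genes. Of the risers, DCN reached a mean of 0.5 FPKM in shTFAM cells only, so some difference came with the level limit. PDGFRB, a receptor of pericytes and fibroblasts, averaged 5.71 FPKM in shTFAM cells and 1.87 FPKM in shCtrl cells (log2 1.69, edgeR adjusted p = 0.000721), and DCN, decorin, 1.48 and 0.201 FPKM (log2 2.95, edgeR adjusted p = 0.00276). COL1A1, the most abundant of the list, averaged 29.5 FPKM in shTFAM cells and 29.4 FPKM in shCtrl cells and did not pass (edgeR adjusted p = 0.779). The list summed to 37.3 to 40.8 FPKM in shTFAM libraries and 24.5 to 37.5 FPKM in shCtrl libraries, and the groups overlapped. Of 4 endothelial markers 1 had 0 counts and none was high enough to test, with sums of 0.389 to 0.643 FPKM in shTFAM libraries and 0.363 to 0.52 FPKM in shCtrl libraries, which overlapped.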
